A study of Sus scrofa with 12 samples.

Results

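The comparison described here is that of maternal diet at 55 days of gestation (dg) in fetal longissimus muscle miRNAs of the pig. It sets 1 small RNA library of the calorie-restricted group (RE55) against 1 of the normal group (NE55), and its members are the miRNAs with at least 10 reads in either library, 360 of the 800 names in the deposited table. Of these, 265 carry names of known pig miRNAs and 95 are candidates that the authors predicted with miRDeep2 and that are named by reference sequence and number. In the series, Large White sows, all in their second parity and mated to the same boar, received a normal (NE) or a calorie-restricted (RE) diet through gestation, and fetuses were collected at 35, 55 or 90 dg, which gives 6 miRNA and 6 mRNA libraries with 1 library per diet and stage in each assay. The RE diet was lower in energy, with added fiber in place of part of the soybean oil and slightly more crude protein, and the amino acids and minerals listed were the same. A fetus near average weight was taken from each of 4 sows per group, and whether their RNA was pooled into the library is not stated. In the deposited tables the restricted diet is labelled SE, which was read as RE.

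MiRNAs are small RNAs that pair with messenger RNAs mainly through bases 2 to 8 from their 5′ end, the seed, and lower their translation or stability. Skeletal muscle has a set of its own, miR-1, miR-133 and miR-206, which are switched on by the myogenic transcription factors as myoblasts fuse, and a second set, miR-208b and miR-499, which lies within slow myosin heavy chain genes and takes part in the slow fiber programme. At the middle of pig gestation the primary fibers have formed and the secondary fibers are being laid down around them.

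Some of the miRNAs described below are shown by their first bases, 5′ to 3′ in DNA letters with the seed in capitals. The bases are given as far as the study's qPCR forward primers hold them once their shared tail is removed. The first 3 share a seed, and so do the pair miR-206 and miR-1.
miR-378b-3p: aCTGGACTtggagtc
NC_010449.4_16480: aCTGGACTtggaatca
NC_010448.3_15620: aCTGGACTtggagcc
miR-206: tGGAATGTaaggaagtg
miR-1: tGGAATGTaaagaagt
miR-338: tCCAGCATcagtgatt
miR-145-5p: gTCCAGTTttcccaggaa
miR-499-5p: tTAAGACTtgcagtg
These were chosen because the first 7 were lower and the last was higher in RE55. Other miRNAs with primers were left out, among them NC_010446.4_12775 (log2 ratio of RE55 over NE55 -1.16) and miR-376a-5p (0.84). Of the 34 primers listed in the study all matched a name among the 360 miRNAs. Sequences of the other miRNAs were not used here.

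The NE55 library held 3064554 reads on miRNAs and the RE55 library 2019322, and the 6 libraries ranged from 1522142 to 3811231. Levels are given as reads or as TPM, the authors' reads scaled to 1000000 reads on the listed miRNAs, and the ratio of RE55 over NE55 is the log2 of reads plus 1 over the library total, so that a value above 0, or a ratio above 1, means higher in RE55. With 1 library a side there is no replicate check and no test, and the 95% intervals are exact conditional binomial intervals that cover counting error only. No molecular identifiers are mentioned in the methods, so amplification may add error that the intervals leave out. Among the other libraries, NE35 stood apart in its kidney and epithelial miRNAs, which summed to 6027 TPM there against 552 TPM in RE35 and 26.1 to 42.0 TPM in the other 4 libraries.

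Both 55 dg libraries were rich in skeletal muscle miRNAs. The 9 muscle miRNAs summed to 174092 TPM in NE55 and 125575 TPM in RE55, while the liver miRNA miR-122 had 2 and 3 reads and the kidney and epithelial list 26.1 and 36.6 TPM. Markers of other tissues were measurable at both diets, and of their lists some were higher and some lower in RE55. The 4 cartilage miRNAs summed to 1681 and 2087 TPM and the endothelial miR-126 arms to 8115 and 9913 TPM. The neural list summed to 3196 and 3992 TPM, with entries of equal reads each counted. It was led by miR-128 (4770 and 3078 reads) and miR-7 (3014 and 2404), while miR-9 (39 and 33) and miR-124a (20 and 24) were low. The fibroblast and smooth muscle list, with the most reads among these, was lower in RE55 at 137828 and 130253 TPM. Its sum was below that of the muscle miRNAs in NE55 and above it in RE55. Both statements rest on its member miR-21, at 32505 TPM in NE55 and 19874 in RE55. Without miR-21 the list was higher in RE55 than in NE55 and stayed below the muscle miRNAs in both. The blood cell list (1819 and 1565 TPM) and the miR-183 cluster (147 and 140 TPM) were also lower in RE55. Fewer cells of a type and less RNA per cell cannot be told apart in bulk tissue.

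The 10 leading miRNAs took 46.2% of the reads in NE55 (Wilson 95% interval 46.1 to 46.2) and 40.4% in RE55 (40.3 to 40.4), and 7 miRNAs were among the leading 10 of both. The gap lay mainly in the first and second of the order. MiR-206 took 10.27% of the NE55 reads (10.23 to 10.30) and 5.81% of the RE55 reads (5.77 to 5.84). MiR-99a, of the miR-99 and miR-100 family, took 11.4% (11.3 to 11.4) and 8.93% (8.90 to 8.97). Together they made up 21.6% of NE55 (21.6 to 21.7) and 14.7% of RE55 (14.7 to 14.8). The median ratio of all 360 miRNAs was 0.22 on the log2 scale and not 0, and ratios below are to be read against that shift. After TMM scaling the median was -0.03 and every ratio stood 0.24 lower, so that 45.8% of the miRNAs were above 1 in place of 68.1%.

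Relative to the total, 21 miRNAs were over 2-fold higher in RE55, which is 5.83% of the 360, and 17 were over 2-fold lower (4.72%), together 10.6%. Under TMM scaling the split was 9 higher and 28 lower, and under median-of-ratios scaling 13 higher and 27 lower. Most miRNAs differed little, with 251 of 360 (69.7%) within 1.5-fold, an interquartile range from -0.09 to 0.53 on the log2 scale, and a median absolute log2 ratio of 0.40. The differences above 2-fold were concentrated among miRNAs with few reads. Of 128 miRNAs with fewer than 100 reads in both libraries, 25 passed 2-fold, against 13 of the 232 with more. Of the 129 with at least 1000 reads, miR-370 and miR-218b passed relative to the total, both higher. Under TMM scaling miR-370 was at 0.76 and miR-218b at 1.00. MiR-206 (-1.07), miR-196b-5p (-1.23), miR-378b-3p (-1.21) and miR-145-5p (-1.13) were then more than 2-fold lower. The 95% interval lay wholly beyond 2-fold for 7 higher miRNAs (1.94%) and 2 lower ones (0.556%), and Fisher's exact test on the reads of both libraries, which compares libraries and not diets, left 15 (4.17%) and 10 (2.78%) at p under 0.01. At the threshold, NC_010449.4_16480 (166 reads in NE55 and 54 in RE55) and miR-370 (1.01) lay just inside and miR-196b-5p (-0.99) and the candidate NW_003541078.1_22385 (0.97) just outside.

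**Figure D1:**
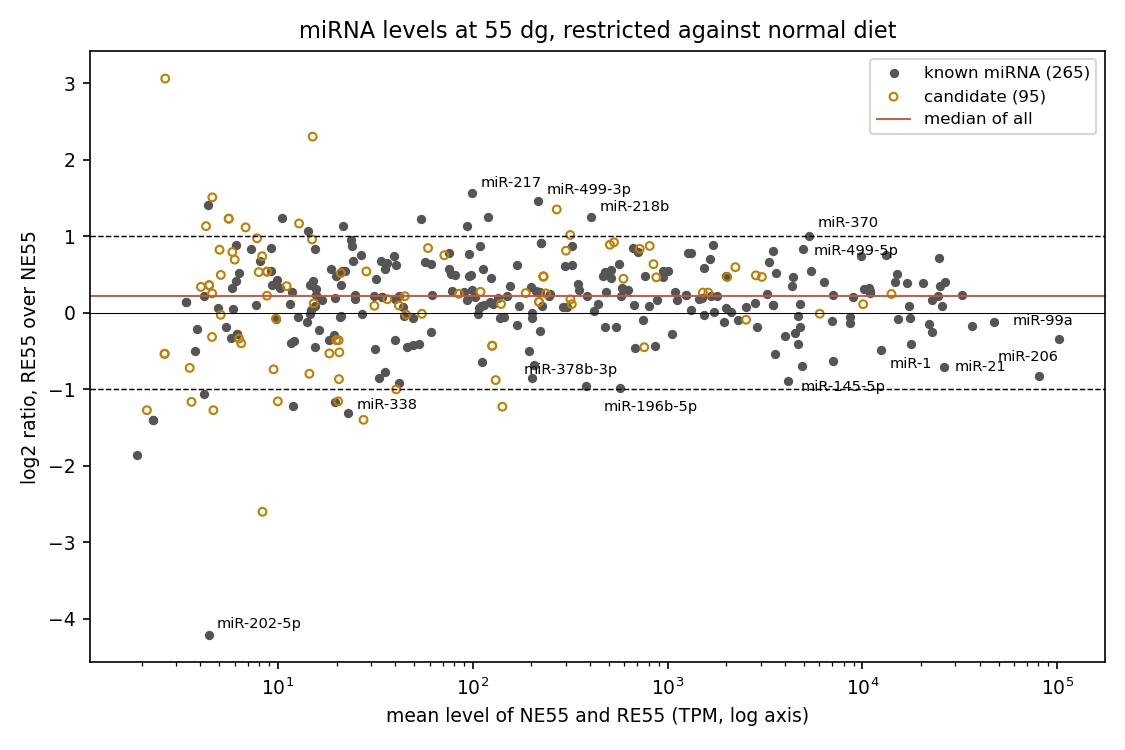
Log2 ratio of RE55 over NE55 (y axis) against the mean TPM of both libraries (x axis, log scale) for the 360 miRNAs, with dashed lines at 2-fold and the coloured line at the median of 0.22. The wide ratios stand at the left among low levels, and miR-206 at the far right lies below 0.

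Among muscle miRNAs the set of contraction and differentiation was lower or level in RE55 and the slow fiber set higher. MiR-206, the skeletal muscle miRNA that promotes myoblast differentiation, had 314624 reads in NE55 and 117256 in RE55 (102667 and 58069 TPM), a log2 ratio of -0.82. MiR-1, which shares its seed, had 44406 and 20964 reads, a log2 ratio of -0.48 (95% interval -0.50 to -0.46). MiR-133b, which lies next to miR-206 in the genome, had 151318 and 91713 reads (-0.12, and -0.36 under TMM scaling). The arms of miR-133a were at 0.09 for 3p and 0.03 for 5p, and at -0.16 and -0.21 under TMM scaling.

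The slow fiber miRNAs went the other way. MiR-499-5p had 10926 reads in NE55 and 12851 in RE55, or 3565 and 6364 TPM, a log2 ratio of 0.84. Its other arm, miR-499-3p, had 353 and 644 reads and the second highest ratio among miRNAs with at least 100 reads (1.47, 95% interval 1.28 to 1.66). MiR-208b, which in mammals lies in the slow myosin gene MYH7, had 2981 and 3363 reads (0.78). MiR-486, a muscle-enriched miRNA from the ANK1 locus, had 2515 and 2418 reads (0.55). Relative to the total, 1 of the 9 muscle miRNAs was more than 2-fold higher and none more than 2-fold lower, against 5.83% and 4.72% of all. Their median was 0.09 beside 0.22 for all 360 (-0.16 and -0.03 under TMM scaling). Under TMM scaling miR-206 (-1.07) was more than 2-fold lower and miR-499-3p (1.22) stayed more than 2-fold higher. MiR-1 was then at -0.73, and 4 of the 9 were above 1.

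The 6 libraries place these values in development. MiR-206 went from 15914 TPM in NE35 to 102667 in NE55 and 122785 in NE90, and from 25217 in RE35 to 58069 in RE55 and 98336 in RE90. MiR-499-5p was at its highest at 55 dg in both diets, with 712, 3565 and 1797 TPM in NE and 880, 6364 and 1202 TPM in RE at 35, 55 and 90 dg. MiR-208b and miR-499-3p also had their highest levels in RE55, and at 90 dg the RE level of each of these 3 was below the NE level. For miR-206 the RE level was the lower of both at 55 and at 90 dg.

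**Figure D2:**
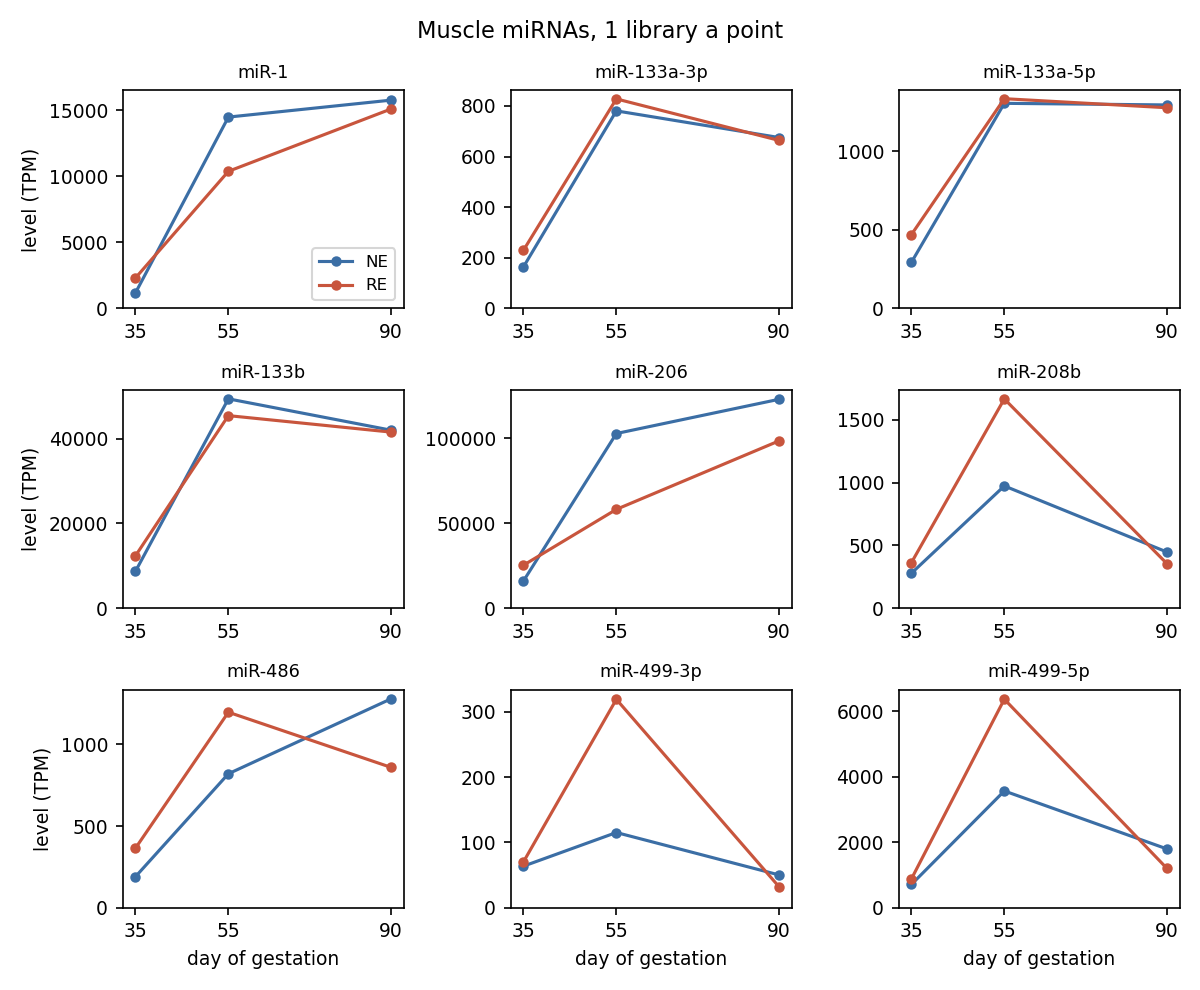
Level in TPM (y axis, from 0) of the 9 muscle miRNAs at 35, 55 and 90 dg (x axis) in the NE and RE diets, 1 library a point without error bars. At 55 dg the RE point lies below the NE point for miR-206 and miR-1 and above it for miR-208b, miR-486 and both miR-499 arms.

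The miRNAs with the steepest rise with age were lower in RE55, though most miRNAs lower in RE55 were not of this kind. The miRNAs were grouped by the 4 libraries of 35 and 90 dg, which the 55 dg comparison does not use. In both diets 12 of the 360 were more than 4-fold higher at 90 than at 35 dg, and all 12 were lower in RE55 than in NE55, with a median log2 ratio of -1.08 and 7 of 12 more than 2-fold lower (background 31.9% below 1 and 4.72% more than 2-fold lower). One of them, NC_010447.4_13442, passed the minimum of 10 reads through NE55 only, which fixes its direction. Of the 11 with at least 10 reads in RE55 all were lower, and 6 by more than 2-fold. All 12 also lay above their RE35 level in RE55. By 55 dg the NE libraries had covered a median of 99.6% of the log2 difference between 35 and 90 dg (interquartile range 96.1 to 103), and the RE libraries 58.0% (52.3 to 75.7). The gap was smaller in the wider age groups. For the 37 miRNAs more than 2-fold higher at 90 dg, which include the 12, the medians were 101% and 86.1%, with NE further on in 20. For the 90 more than 2-fold lower they were 78.2% and 65.4%, with NE further on in 48. For the 28 more than 4-fold lower it was the RE libraries that were further on, with 74.7% in NE and 84.9% in RE, and NE was ahead in 10. At 90 dg 10 of the 12 were higher in RE than in NE. Grouped by the RE libraries alone, which leaves NE35 and NE90 out, 16 miRNAs were more than 4-fold higher at 90 dg, and all 16 were lower in RE55, as were the 14 of them with at least 10 reads in RE55.

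These 12 included miRNAs of muscle and of its stem cells. MiR-338 had 101 reads in NE55 and 26 in RE55 (-1.32), with 1 and 3 reads at 35 dg and 89 and 203 at 90 dg. The candidate NC_010454.3_1559 ran close to it, with 123 and 30 reads at 55 dg (-1.40, 95% interval -2.06 to -0.85). MiR-489, which in mouse keeps muscle satellite cells quiescent, had 84 and 24 reads (-1.16), with 2 reads in each 35 dg library and 76 and 111 at 90 dg. The candidate NC_010451.3_19102 had 610 and 171 reads (-1.23, -1.49 to -0.99).

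The 3 miRNAs with the seed CTGGACT printed above were all in this group. MiR-378b-3p had 1543 reads in NE55 and 521 in RE55 (-0.96, 95% interval -1.11 to -0.82), NC_010449.4_16480 had 166 and 54 (95% interval -1.49 to -0.57) and NC_010448.3_15620 had 82 and 29 (-0.87). Their sequences are near-identical, so reads could be split between them, and they are not 3 independent measurements. MiR-378, listed in the same family as miR-378b-3p, had more reads than any of these 3. It lies in PPARGC1B and is known for its part in mitochondrial metabolism. It was also in the group but closer to level, with 15144 and 8278 reads (-0.27). The remaining 4 were miR-1, given above, miR-493-5p (3546 and 1925 reads, -0.28), and the candidates NC_010457.4_5124 (87 and 25, -1.16) and NC_010447.4_13442 (16 and 4, -1.16).

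The wider groups, of more than 2-fold with age in both diets, lay closer to all miRNAs. Of 37 miRNAs higher at 90 dg, 22 (59.5%, beside 31.9% of all) were lower in RE55, with a median of -0.16. More than 2-fold lower were 7 (18.9%, beside 4.72% of all), and none was more than 2-fold higher. The 12 with the steepest rise, described above, make up 12 of these 22 and hold all 7. Of 90 miRNAs lower at 90 dg, 65 (72.2%) were higher in RE55, with 11 past 2-fold upward and 5 past 2-fold downward and a median of 0.28, against 68.1% of all 360 above 1 and a median of 0.22. The 28 that were more than 4-fold lower at 90 dg had a median of 0.25, with 19 of 28 above 1. Grouping by the RE libraries alone, which leaves NE35 out, gave 29 of 52 lower in RE55 among those higher at 90 dg and 83 of 110 higher in RE55 among those lower at 90 dg.

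**Figure D3:**
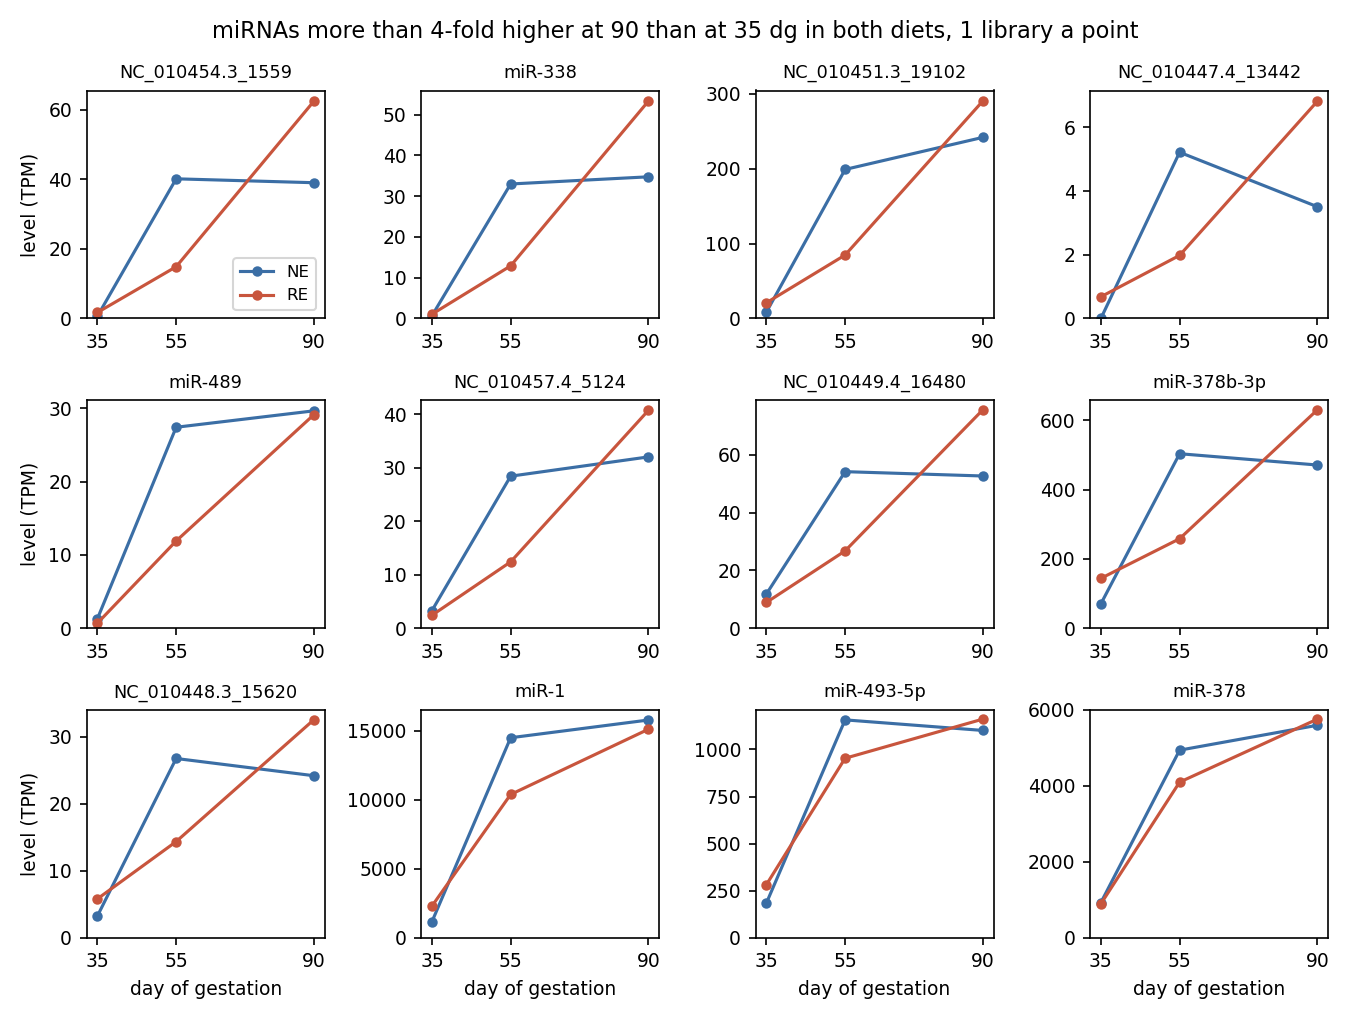
Level in TPM (y axis, from 0) at 35, 55 and 90 dg (x axis) of the 12 miRNAs more than 4-fold higher at 90 than at 35 dg in both diets, 1 library a point. In each panel the RE point at 55 dg lies below the NE point, and in 10 of 12 the RE point at 90 dg lies above it.

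Other miRNAs low in RE55 were not among those 12. MiR-145-5p, a miRNA of smooth muscle and fibroblasts, was among the 37 more than 2-fold higher at 90 dg and had 16522 reads in NE55 and 5892 in RE55 (-0.89, 95% interval -0.93 to -0.84), while the 3p arm of its hairpin was at -0.19 and its neighbour miR-143-3p at -0.17. MiR-21, abundant in fibroblasts and immune cells, had 99611 and 40130 reads (-0.71). MiR-34a, a target of p53, had 168 and 58 reads (-0.92), miR-96-5p 130 and 47 (-0.85), and the candidate NC_010454.3_1347 had 521 and 186 (-0.88). Of the 8 members of the miR-23, miR-24 and miR-27 clusters, 6 were below 1 with a median of -0.19, led by miR-23a at 12887 and 5862 reads (-0.53).

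Among low counts, miR-202-5p, known from the gonads, had 27 reads in NE55 and 0 in RE55, at least 5.93-fold lower against a floor of 3 reads per library. It had 530 reads in NE35 and 2 in RE35. NW_003613327.1_21604 had 45 and 4 reads at 55 dg, a log2 ratio of -2.60 with an interval from -4.83 to -1.43. Both rest on few reads.

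The highest ratios with at least 100 reads belonged to miRNAs of several origins. MiR-217 had 153 reads in NE55 and 300 in RE55 (1.57, 95% interval 1.29 to 1.86) and miR-216, its neighbour in the genome, 100 and 154 (1.22, 0.85 to 1.60). Both are known from the pancreas. The candidate NC_010445.3_11338 had 465 and 782 reads (1.35, 1.18 to 1.52), and in TPM it was higher in RE55 (387) than in any other library (70.1 to 152). MiR-218b had 734 and 1150 reads (1.25, 1.11 to 1.39), and miR-218, whose read counts equal those listed as miR-218-5p, had 477 and 594 (0.92). MiR-218 is known from motor neurons and from the SLIT genes. MiR-874, which lies in KLHL3, had 178 and 259 reads (1.14), and the candidate NC_010461.4_19702 had 641 and 855 (1.02).

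**Figure D4:**
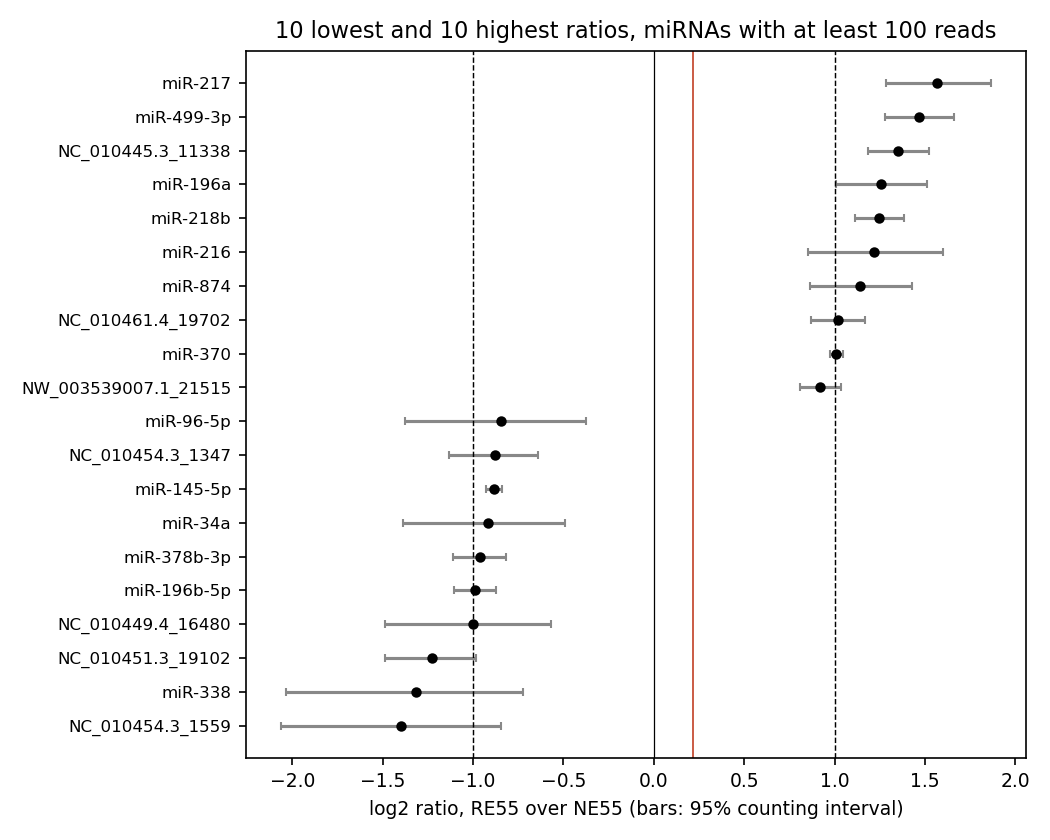
Log2 ratio of RE55 over NE55 (x axis) for the 10 lowest and 10 highest of the 232 miRNAs with at least 100 reads in 1 of both libraries, with bars for the 95% counting interval, dashed lines at 2-fold and the coloured line at the median of 0.22. The intervals of miR-217, miR-499-3p, NC_010445.3_11338, miR-218b and miR-196a lie wholly above 2-fold.

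Seen by list, HOX cluster miRNAs had the highest median, and their ratios were spread as widely as those of the muscle miRNAs (ranges of 2.24 and 2.29). These lie between HOX genes and follow position along the body axis. MiR-196a had 217 reads in NE55 and 342 in RE55 (1.26, 95% interval 1.01 to 1.51), and miR-615 19 and 30 (1.23). MiR-10a-5p had 7747 and 8896 reads (0.80) and miR-10b 69543 and 60759 (0.41). MiR-196b-5p, a close relative of miR-196a from another cluster, went the other way with 2332 and 774 reads (-0.99, -1.11 to -0.87). The list median was 0.68 over 6 measured members. Both miR-196 genes were lower at 90 than at 35 dg in both diets.

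The miR-17 to miR-92 and related clusters, which promote proliferation and are common in dividing cells, had 12 of 12 measured members above 1, beside 68.1% of all, with a median of 0.38 and none past 2-fold. MiR-19b had 30220 and 33641 reads (0.76), miR-92b-3p 90 and 99 (0.74), and miR-19a 3875 and 4141 (0.70). Under TMM scaling the list median was 0.14, with 7 of 12 above 1 beside 45.8% of all. The 10 members of the X chromosome cluster from miR-424 to miR-450 were also all above 1, but with a median of 0.25 they were close to the 0.22 of all, and under TMM scaling 5 of 10 were above 1 with a median of 0.0021. The highest was miR-450c-5p (57656 and 62154 reads, 0.71), which moved from the 15th to the 6th place in the order of reads. In that cluster and the miR-15 and miR-16 family, miR-503 had 7893 and 8212 reads (0.66), whereas miR-497 had 52 and 14 (-1.22) and its neighbour miR-195 113 and 53 (-0.48).

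In the DLK1-DIO3 cluster, an imprinted locus that holds many miRNAs of fetal tissue, 14 of 17 measured members were above 1 (68.1% of all), 1 was more than 2-fold higher (5.83% of all) and the median was 0.29. Under TMM scaling 9 of 17 were above 1 and the median was 0.04. MiR-370 led it with 10866 and 14404 reads (1.01, 95% interval 0.97 to 1.04), followed by miR-323 (3675 and 4466, 0.88) and miR-376a-5p (1462 and 1728, 0.84). The let-7 family and miR-98, which rise with differentiation in many tissues, were near level, with 5 of 9 above 1 (2 of 9 under TMM scaling), a median of 0.10 (-0.15) and a range from -0.19 to 0.63, that highest value being let-7i (775 and 789 reads). In the miR-29 family, linked to collagen genes, miR-29a had 790 and 289 reads (-0.85), miR-29c 54 and 30 (-0.23) and miR-29b 16 and 14 (0.42).

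Several families of high level stood below the median of all. All 3 members of the miR-99 and miR-100 family were below 1, led by miR-99a at -0.35. The miR-30 family had a median of -0.08 over 8 measured members, with miR-30a-5p at 26341 and 11199 reads (-0.63) and miR-30e-5p at 69401 and 53373 (0.22). Of the fibroblast and smooth muscle list 5 of 10 were above 1, and 2 of 10 under TMM scaling. In the miR-181 family miR-181a had 38150 and 35686 reads (0.51) and miR-181c 693 and 324 (-0.49). MiR-125a, miR-125b, miR-221-3p, miR-221-5p and miR-222 were each above 1 and under 2-fold, the last at 57 and 60 reads (0.67), whereas under TMM scaling miR-125a (-0.05) and miR-221-3p (-0.06) were below 1.

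Among the lists of other cell types, the 4 cartilage miRNAs, miR-140 and miR-455 by arm, were all above 1 with a median of 0.51 (3 of 4 and 0.26 under TMM scaling), led by miR-455-3p at 719 and 721 reads (0.61). The 10 measured neural names held 8 distinct read patterns, since miR-218 and miR-218-5p are equal and so are miR-9-1 and miR-9-2. Of the 8 patterns 6 were above 1, near the 68.1% of all, and the median over the names was 0.32 (0.08 under TMM scaling). The brain miRNA miR-124a had 20 and 24 reads. The blood cell list had a median of -0.15, with 3 of 8 measured members above 1 (1 of 8 under TMM scaling). The red cell miRNAs miR-144 had 2413 and 1151 reads (-0.47) and miR-451 1559 and 902 (-0.19). The highest of the list was the white cell miRNA miR-142-5p at 419 and 353 (0.36). In the miR-183 cluster of sensory cells, miR-182 had 146 and 150 reads (0.64), miR-183 174 and 85 (-0.42) and miR-96-5p -0.85. The part of such cell types in the differences between both libraries was not tested.

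**Figure D5:**
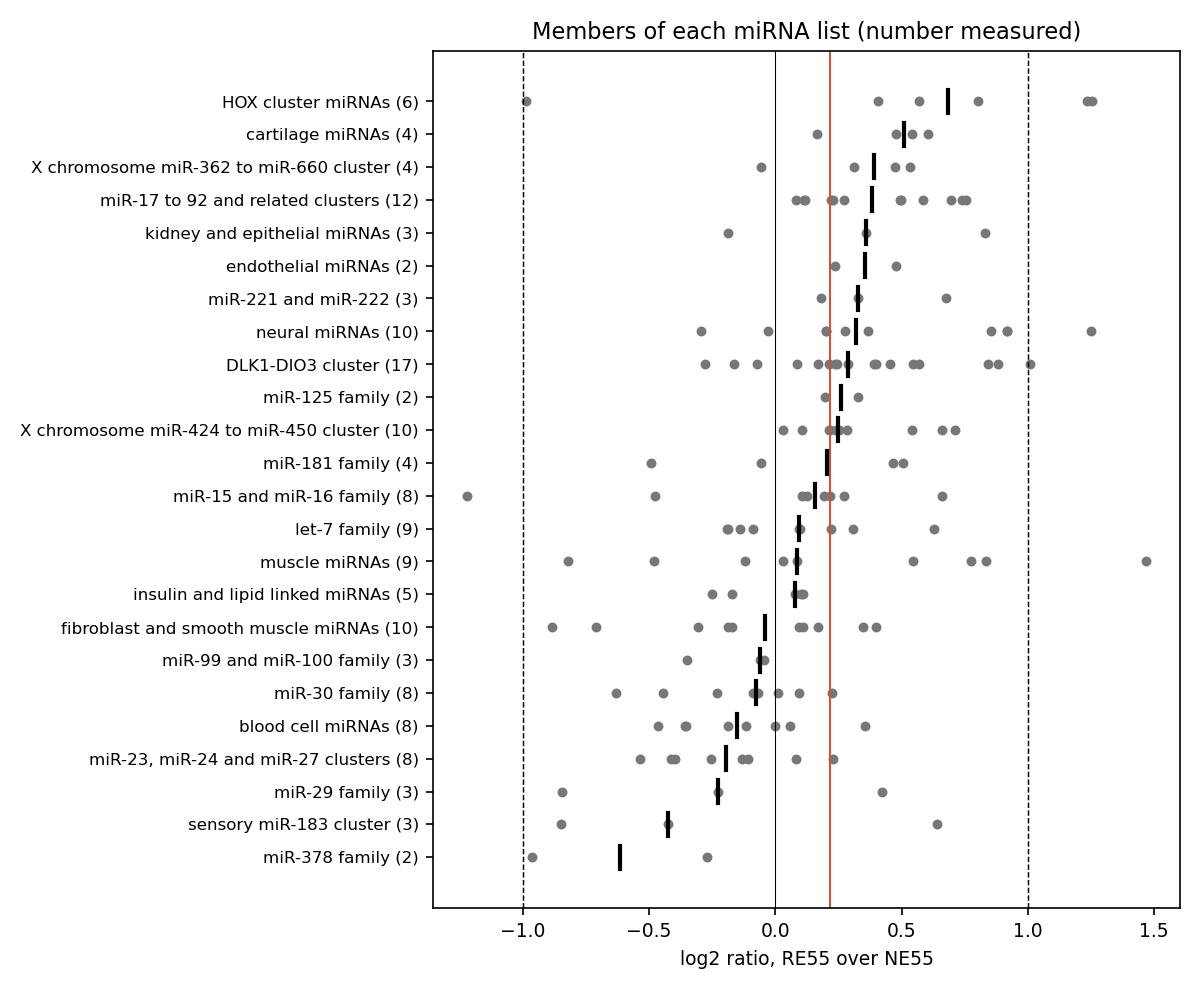
Log2 ratio of RE55 over NE55 (x axis) of each measured member (points) of 24 miRNA lists (y axis, number measured in brackets), with the list median as a black bar, dashed lines at 2-fold and the coloured line at the median of all 360 miRNAs. The HOX list has the highest median, 0.68, and its members reach from -0.99 to 1.26.

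Products of 1 hairpin gave a measure of how far ratios differ when the source is shared. For 29 hairpins with at least 100 reads on both the 5p and the 3p arm, the arms differed by a median of 0.30 on the log2 scale and by 0.83 at most, in miR-493, and 21 of 29 pairs had the same sign. Over all 48 hairpins measured on both arms, 3 pairs differed by more than 1, each with under 20 reads on 1 arm. A log2 difference of 0.30 between 2 miRNAs is therefore no larger than the usual one between arms of a hairpin.

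Of the 265 known miRNAs, 213 matched a single miRNA gene in RefSeq (Sscrofa11.1, another build than the Sscrofa10.2 of the authors' mRNA processing, used for order only), and 72 of them fell into 24 groups of hairpins within 10 kb of each other. The range of ratios within a group had a median of 0.45. MiR-216 and miR-217 were the highest group, with a median of 1.39, and miR-195 and miR-497 the lowest, with -0.85. MiR-191 and the arms of miR-425 lay close together between 0.52 and 0.66. MiR-206 and miR-133b differed by 0.70, and miR-182 and miR-96-5p of the miR-183 cluster by 1.49.

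The 95 candidates had a median of 0.25 beside 0.21 for the 265 known miRNAs, but passed 2-fold more often. Upward 10 candidates and 11 known miRNAs passed, and downward 9 and 8, together 20% of the candidates and 7.17% of the known ones beside 10.6% of all. Candidates also had fewer reads: 49 of 95 (51.6%) had under 100 in both libraries, against 79 of 265 (29.8%). With at least 100 reads 5 of 46 candidates and 8 of 186 known miRNAs passed 2-fold. Of the measured candidates 12 lie on the scaffold NW_003539007.1, and all 12 were above 1, from 0.11 to 0.92 with a median of 0.56, led by NW_003539007.1_21515 with 1123 and 1402 reads. NC_010454.3_1179, which the study followed up, had 443 and 216 reads (-0.43), a count shared with NW_003613004.1_20509. Among the 360 names 9 groups of 19 names had the same reads in all 6 libraries, so the number of distinct read patterns was 350.

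Host genes gave another readout of the same groups, from the mRNA libraries. In 42 pairs of a miRNA and the gene that holds it in human, over 30 genes with at least 10 counts in NE55 or RE55, the miRNA and the gene differed in the same direction in 22. Across pairs Pearson's r of the log2 ratios was -0.15 and Spearman's rho 0.05, a description over pairs that share genes and libraries. AATK (0 counts in NE55 and 11 in RE55) and LPP (2 and 12) passed the minimum of 10 counts through RE55 only, which fixes their direction. Their pairs, with miR-338 and with the arms of miR-28, are among the 42. In the pig RefSeq annotation the miRNA lay within the same gene for 41 of the 42.

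The miRNAs that stood out had hosts of either kind. MYH7B, the myosin gene that holds miR-499, had 3687 counts in NE55 and 7432 in RE55, a log2 ratio of counts over the library total of 0.79 (95% interval 0.74 to 0.85) beside 0.84 and 1.47 for its miRNA arms. CALCR, the calcitonin receptor, which in mouse marks quiescent satellite cells, had 112 and 48 counts (-1.42, -1.96 to -0.94) beside -1.16 for miR-489. Over the 6 libraries NE35, RE35, NE55, RE55, NE90 and RE90 it had 5, 7, 112, 48, 106 and 163 counts, while miR-489 had 2, 2, 84, 24, 76 and 111 reads. Both were low at 35 dg and had RE55 as the lowest of the later libraries.

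KLHL3 had 27 and 63 counts (0.97, 0.33 to 1.71) beside 1.14 for miR-874, and DALRD3 115 and 224 (0.74) beside 0.52 to 0.66 for miR-191 and miR-425. In other pairs the gene and the miRNA parted. SMC4, a condensin subunit of dividing cells, had 3340 and 1175 counts (-1.72, -1.82 to -1.63), while its miR-15b was at 0.27. NSRP1 had 3199 and 1169 counts (-1.67) with miR-423-3p at 0.79, and COPZ1 526 and 1304 (1.09) with miR-148b-3p at -0.69. AATK, the host of miR-338, had 0 and 11 counts, a direction fixed by the minimum of counts as said above. PPARGC1B had 54 and 79 counts (0.32, -0.19 to 0.86) with miR-378 at -0.27. MEST, an imprinted gene, had 1048 and 1529 counts (0.33) with miR-335 at 0.74, and EGFL7, an endothelial gene, 221 and 447 (0.80) with miR-126-3p at 0.24.

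By the share of miRNAs past 2-fold, the difference between diets was close to that at 90 dg, below that at 35 dg, and smaller than that of age from 35 to 55 dg. More than 2-fold either way were 10.6% of miRNAs between RE55 and NE55, 16.6% between RE35 and NE35, 11.0% between RE90 and NE90, 55.9% between NE55 and NE35 and 42.1% between RE55 and RE35. From 55 to 90 dg the share was 10.6% in NE and 21.4% in RE. The median absolute log2 ratio between diets was 0.40 at 55 dg, 0.26 at 90 dg and 0.44 at 35 dg, which puts 55 dg nearer to 35 dg. Taken from the median of each comparison, the median absolute deviation was 0.31, 0.27 and 0.44, which puts 55 dg nearer to 90 dg. The ratios at 55 dg had little in common with those at 90 dg, with which they share no library (Pearson's r = -0.01 over 345 miRNAs), or at 35 dg (0.22 over 349). Of the 21 miRNAs more than 2-fold higher at 55 dg, 4 stood past 2-fold upward and 2 past 2-fold downward at 90 dg, and 1 was higher and 4 were lower at 35 dg. Of the 17 more than 2-fold lower, none was lower and 2 were higher at 90 dg, and 5 were lower and 1 was higher at 35 dg. Over all measured miRNAs, 32 of 356 (8.99%) passed 2-fold upward and 7 (1.97%) downward at 90 dg, and 14 of 397 (3.53%) passed upward and 52 (13.1%) downward at 35 dg.

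A difference of diet shared by the 3 stages could be tested over the 6 libraries, with diet and stage as factors. In edgeR's quasi-likelihood fit none of 377 miRNAs had an adjusted p (Benjamini-Hochberg) under 0.05, the smallest being 0.951, which is 0% called, and 9 had an unadjusted p under 0.05. The Wald test of DESeq2 called none either, with 16 at an unadjusted p under 0.05 and a smallest adjusted p of 0.0863. Without the 90 dg libraries edgeR called 1 miRNA, miR-202-5p, lower in RE (log2 change -8.88, adjusted p = 0.00212), the miRNA with 530 reads in NE35 and 2 in RE35. This test does not bear on a difference present at 55 dg alone.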

How the data were processed

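The authors made small RNA libraries, trimmed 3′ adaptors, kept reads of 16 to 26 nt, predicted candidates with miRDeep2 and deposited read counts per miRNA, not normalized, and TPM, which recomputation from the counts matched within 0.0153% for miRNAs with at least 100 reads. Per the labels Bowtie was used for miRNA and TopHat2 for mRNA. The authors discarded mRNA reads with several genome locations and deposited counts per gene. Here counts were analysed with Python 3.11.15, numpy 2.4.6, pandas 2.3.3, scipy 1.17.1, R 4.3.3, edgeR 4.0.16 and DESeq2 1.42.0. The ratio is (reads + 1) over the library total, and a fold above 2 counts as called. The deposited RPKM were not used. The interval and the edgeR fit were tested on simulated data. Named miRNAs are the 10 highest and 10 lowest ratios with at least 100 reads, the 10 with most reads, all muscle miRNAs, up to 3 per list, and hosts with at least 10 counts. Scaffold, arm and low-count values were added after the values were seen. Members, lists and host pairs were chosen with earlier results of these data known. Alternatives covered scaling, filters, pseudocounts, call rules and age groups. Samples were grouped by title, and no column was left unmatched (0).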

Additional observations from a re-analysis of the deposited data

How the results depend on the processing

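No paired analysis was possible because the labels give no replicate numbers and each diet has 1 library at 55 dg. The tests of diet over the 6 libraries already have stage as a factor. The 38 miRNAs past 2-fold (21 higher, 17 lower) became 18 (11 and 7) with at least 50 reads, 151 (117 and 34) with at least 1 read, 9 (7 and 2) with the interval wholly beyond 2-fold, and 25 (15 and 10) with Fisher's exact test at p under 0.01, which compares 2 libraries and not diets. Scaling kept the sum but moved the split, to 9 and 28 under TMM and 13 and 27 under median of ratios. A pseudocount of 5 reads left 20 higher and 7 lower. Leaving out miR-206 and miR-99a from the totals, chosen after seeing the data, gave 17 and 22. Of miRNAs higher with age, 59.5% were lower in RE55, and 100% with the 4-fold groups, also when these were taken from the RE libraries alone (chosen after seeing the data). The count of lists with a median above 1 was 16 of 24, and 11 under either other scaling. Leaving out the libraries of 1 stage gave 0 to 1 miRNAs in the edgeR test of diet. Of the 93 named ratios, 10 changed sign under TMM and 6 under median of ratios, none of them past 2-fold and all at or under 0.24 by the total. Host pairs with the same direction were 22 under both scalings. Depth limits most the 128 miRNAs under 100 reads, which hold 25 of the 38.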
